A study of Mus musculus with 2 samples.

Results

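The miRNA genes inside Sfmbt2 are one of the largest groups of repeated miRNA hairpins in the mouse genome, and they belong to the Mir297, Mir466, Mir467 and Mir669 families. They were taken as all miRNA genes on the strand of Sfmbt2 that lay fully within its span, chromosome 2 from 10370510 to 10595253 on the plus strand of mm10, as annotated in GENCODE M21. By this rule 107 of the 1973 miRNA genes in the count tables were members. A further 12 annotated miRNA genes of the span were not analysed here. MicroRNA-seq of inserts below 30 nt had been run on midbrain of healthy B6NCrl mouse embryos at embryonic day 16.5. There was 1 group with 2 biological replicates, each a pool of male and female embryos (37 embryos in replicate 2), with no treatment and no mutant allele named. Without a second group, the questions were which members gave reads, at what level, and how far the replicate libraries differed.

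Sfmbt2 encodes a Polycomb group protein, and in extraembryonic tissue of rodents the gene is imprinted and expressed from the paternal allele. Its miRNA hairpins are cut from an intron of the Sfmbt2 transcript, arose by repeated duplication in the rodent lineage, and are best known from the placenta and from embryonic stem cells. A mature miRNA pairs with target mRNAs mainly through its seed, bases 2 to 8 from the 5′ end, and miRNAs with 1 seed share many targets.

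No sequence is printed for the members, as 0 of the 107 matched an entry by symbol in the RefSeq table (GRCm38.p6). Of the 10 genes of the same families that lie elsewhere in the genome, 9 matched, 8 of them with a mature sequence. Of these, 5 are shown for the range of their seeds, from one whose letters occur in most member hairpins to one found in 1. Each is written 5′ to 3′ with the seed in capitals.

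mmu-miR-467g: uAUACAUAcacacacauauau

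mmu-miR-467h: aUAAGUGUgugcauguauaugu

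mmu-miR-466i-3p: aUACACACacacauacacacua

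mmu-miR-466k: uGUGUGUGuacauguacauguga

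mmu-miR-669n: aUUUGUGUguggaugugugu

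On GRCm38.p6 they lie at chr5:34732872-34732892 (minus strand) for Mir467g and chr9:115381898-115381919 (plus) for Mir467h. The others lie at chr13:17747552-17747573 (plus) for Mir466i, chr3:85467396-85467418 (plus) for Mir466k and chr3:115979905-115979924 (plus) for Mir669n. In neither library did these 5 genes have a read. The letters of their seeds were then searched on the sense strand of the annotated hairpins, where a match says only that the letters occur. The AUACAUA of mmu-miR-467g was in 66 of the 107 member hairpins (61.7%), among them all 14 Mir467 members, and in 6.49% of all 2202 annotated miRNA hairpins. The UACACAC of mmu-miR-466i-3p was in 51 (47.7%), again with all 14 Mir467 members, against 8.17% of all. The GUGUGUG of mmu-miR-466k was in 38 members (35.5%), 19 of them among the 20 Mir466 genes, against 9.54% of all. By contrast the UAAGUGU of mmu-miR-467h was in 1 member, Mir467e, and in 0.636% of all hairpins, and the UUUGUGU of mmu-miR-669n in 10 members (9.35%) against 2.59%. None of the 5 whole sequences was found in a member (0 of 107). Member hairpins had a median G+C content of 38.3% (range 29.0 to 43.4), against 52.0% for the other genes.

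The miRNA genes held 6151299 sense-strand reads in replicate 1 and 5312642 in replicate 2. Levels are given as CPM, in which counts are scaled to these library totals. In such libraries a count of 0 allows up to 3 placed reads (counting error only), which is 0.488 CPM in replicate 1 and 0.565 CPM in replicate 2. Reads that mapped to several places, 35.3% and 36.5% of all reads, stood in a row of their own, apart from the rows of genes. As a check of the tissue label, 10 of 12 miRNA genes of brain and neurons had 10 or more reads in both libraries, and the list summed to 39448 and 36820 CPM. Mir137, Mir135b and Mir153 led this sum, with means of 15108, 12829 and 5868 CPM. Mir124a-1 and Mir124a-2 had means of 5.04 and 3.86 CPM, and Mir124a-3 and Mir9-2 missed the 10 reads. In Mir124a-1 and Mir124a-2, 67.2% and 70.5% of the 22-base windows of the hairpin were found at 1 place among annotated hairpins. Reads shared between copies may not have been placed, so the level of the Mir124a family cannot be read from these counts. Pluripotent cell miRNAs of the Mir290 to Mir295 group (3 of 7 genes) summed to 15.9 and 10.4 CPM with Mir290a at 0 reads, red and white blood cell miRNAs (4 of 4) to 410 and 487 CPM, and muscle miRNAs (1 of 3) to 18.2 and 17.7 CPM with Mir1a-1 and Mir133a-1 at 0 reads. In 2 lists chosen after the values were seen, other miRNAs known from pluripotent cells, the Mir302 cluster (4 of 5 genes detected, Mir367 at 0 reads), summed to 744 and 533 CPM. The Mir200 family of epithelial cells (5 of 5 detected) summed to 663 CPM in replicate 1 and 116 in replicate 2.

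Few members of the cluster were detected, and 8 of the 10 that were belong to the Mir467 and Mir669 families. Detection required a minimum of 10 sense reads in each library. Detected members numbered 10 of 107 (9.35%), against 20.8% of all 1973 miRNA genes. Another 13 members had at least 1 read in at least 1 library but fell short of the minimum, and 84 had 0 reads in both. The members held 27540 reads in replicate 1 and 24014 in replicate 2. Replicate 1 thus had 0.448% of its miRNA reads on the cluster (Wilson, 95%, 0.442 to 0.453). For replicate 2 the share was 0.452% (0.446 to 0.458), giving a mean of 0.450% ± 0.0030 (SD, n = 2). With these library totals the intervals overlap, and a difference between the libraries in the summed level of the cluster was not tested. Wilson intervals and other counting intervals cover counting error only, since reads without molecular identifiers are not independent molecules.

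The order of levels was led by 3 genes of the Mir467 family. Mir467e (ENSMUSG00000076948.2, chromosome 2, 10505721 to 10505807) had 1430 CPM in the replicate 1 library and 1501 in that of replicate 2, a mean of 1466 ± 49.9. Mir467d (ENSMUSG00000077021.2, 10507630 to 10507714) stood at 1337 and 1336 CPM, and Mir467c (ENSMUSG00000077049.2, 10473931 to 10474027) at 903 and 953 CPM. The libraries of these 3 genes did not overlap, so by placed reads Mir467e lay above Mir467d and Mir467d above Mir467c in both. They ranked 80, 84 and 95 among all 1973 genes by mean CPM. The 22-base windows found in no other annotated hairpin were 39 of 66 in Mir467e, 25 of 64 in Mir467d and 48 of 76 in Mir467c. The order of placed reads therefore need not be the order of expression.

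Next in level were 3 genes of the Mir669 family, also separated from each other in both libraries. Mir669o (ENSMUSG00000077086.1, 10514300 to 10514395) stood at 353 CPM in replicate 1 and 318 in replicate 2. For Mir669l (ENSMUSG00000076959.1, 10468971 to 10469068) the levels were 253 and 216 CPM, and for Mir669c (ENSMUSG00000076118.1, 10509296 to 10509404) 146 and 145 CPM. Each of the 6 leading genes had at least 772 reads in either library.

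The remaining 4 detected members were lower by a wide step. Mir669e (10467495 to 10467613) stood at 20.5 and 17.1 CPM and Mir466n (10513741 to 10513834) at 17.7 and 16.6 CPM, so the libraries of these neighbours in the order overlapped. Mir669h (10518155 to 10518279) stood at 7.48 and 6.21 CPM on 46 and 33 reads. Mir297a-2 (10472254 to 10472343) stood at 4.71 and 5.08 CPM on 29 and 27 reads, and was the last gene above the minimum. Just below it were Mir669f with 7 and 8 reads and Gm22239 with 8 and 4 reads.

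**Figure D1:**
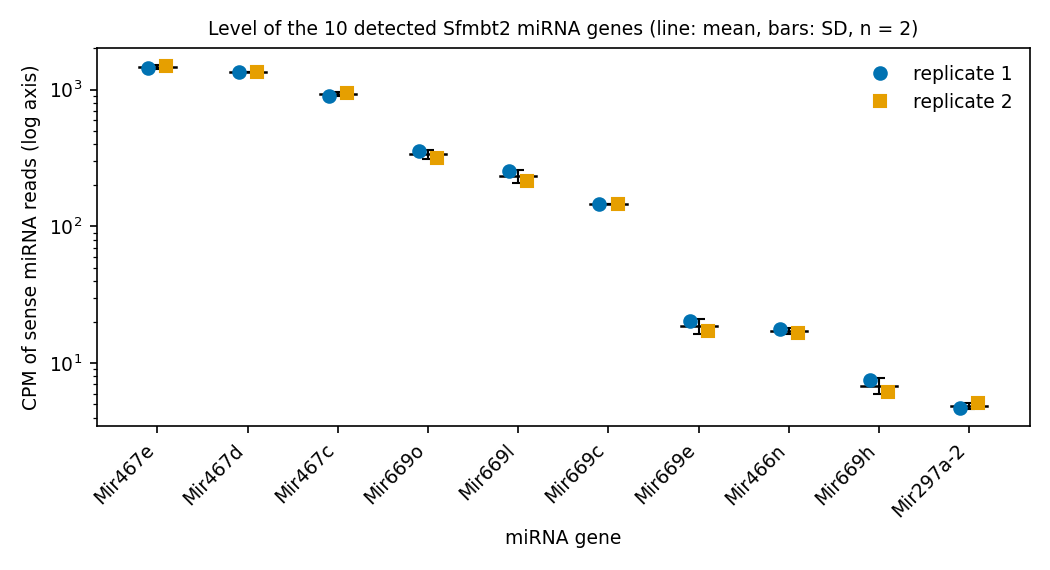
CPM on a log axis for each of the 10 detected members, with replicate 1 as circles, replicate 2 as squares, the mean as a line and the SD over 2 libraries as bars. Mir467e, Mir467d and Mir467c lie between 903 and 1501 CPM, 3 Mir669 genes between 145 and 353 CPM, and the other 4 genes at or below 20.5 CPM.

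By family, the Mir467 genes held most of the cluster's placed reads with 3 of 14 genes detected. Their share of cluster reads was 82.0% in replicate 1 and 83.8% in replicate 2 (mean 82.9% ± 1.32). The Mir669 genes, 5 of 20 detected, held 17.4% and 15.6% (16.5% ± 1.31). In both families the 95% Wilson intervals of the libraries did not overlap, at 81.5 to 82.4 and 83.4 to 84.3 for Mir467 and at 17.0 to 17.9 and 15.1 to 16.1 for Mir669. The split between these families thus differed between the libraries by more than counting error. The Mir466 genes, 1 of 20 detected, held 0.414% and 0.408%, and the Mir297 genes, 1 of 5 detected, 0.109% and 0.117%. Genes known only by a Gm symbol, 48 of the 107 members, had 0 detected and held 0.0472% and 0.0375%. The 5 highest members together held 95.5% of cluster reads in replicate 1 and 95.7% in replicate 2 (95.6% ± 0.11). No 22-base window set 10 of the 14 Mir467 genes apart from other annotated hairpins. The same held for 4 of 20 Mir669, 6 of 20 Mir466 and 22 of 48 Gm genes. These are thus shares of placed reads, and need not be the shares of all reads from each family.

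All 107 members lie in 1 intron of 62472 bases (10461473 to 10523944), which follows exon 10 or exon 11 in the 2 annotated transcripts of 23 exons. No member overlaps its neighbour, and 0 reads were counted on the opposite strand of any member in either library. The Mir467 copies are spaced through the intron with a median of 2450 bases between starts, and 11 of the 13 gaps measured 2400 to 2500 bases. Along the intron the placed reads came from the edges of this array. From Mir467c to Mir467d, a stretch of 33.8 kb, lie 66 members, of which 3 were detected. They are Mir467c and Mir467d themselves, which bound the stretch, and Mir467e. Between Mir467c and Mir467e the most reads at any member were 3 in each library, at Mir466b-3. Before Mir467c 3 of 16 members were detected, and after Mir467d 4 of 25. In the stretch from Mir467c to Mir467d 40 of 66 members had no 22-base window that set them apart from other hairpins, against 0 of 16 before and 2 of 25 after it, and the median unique part was 0%, 46.8% and 58.9%. The part of this in the pattern of reads was not tested.

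**Figure D2:**
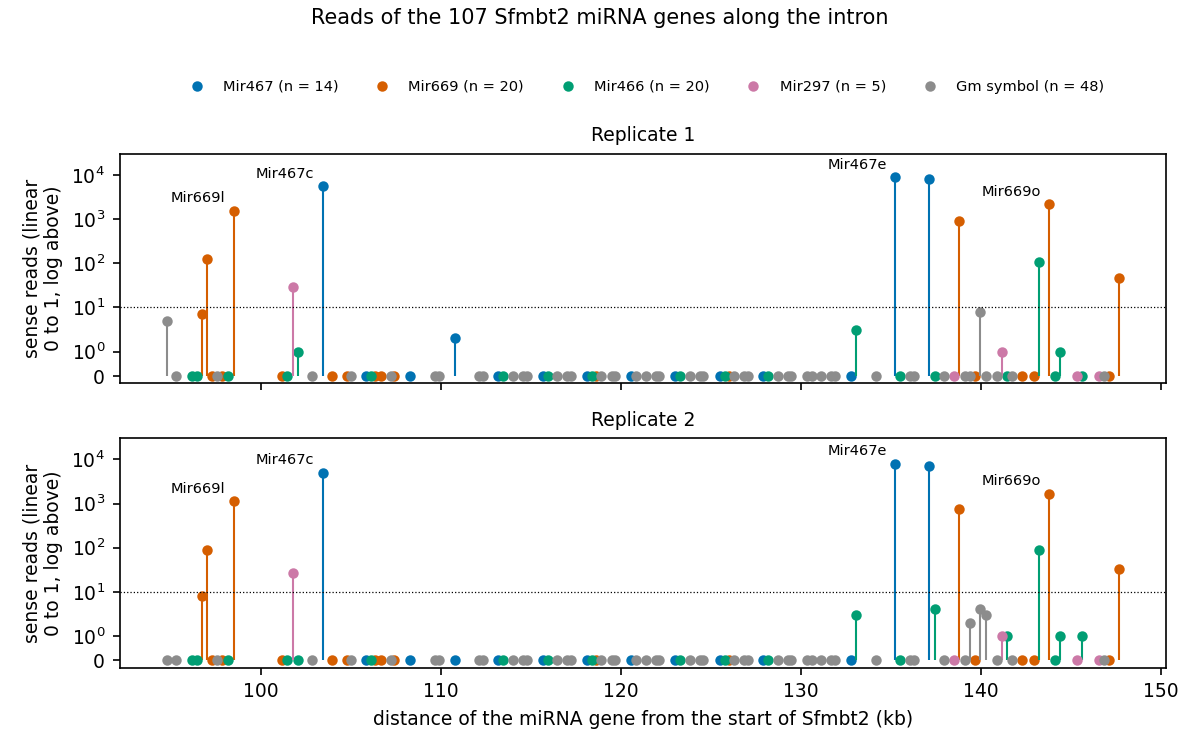
Sense reads of each of the 107 members (linear from 0 to 1 and log above) against the distance of the gene from the start of Sfmbt2 in kb, 1 panel per library, coloured by family, with the minimum of 10 reads dotted. Members with over 10 reads stand at both edges in both libraries, with Mir467c at 103 kb and Mir467e at 135 kb, and those between hold 3 reads or fewer.

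Many of the hairpins are copies of each other, so the part of each hairpin that can be told apart was measured. A window of 22 bases, about the length of a mature miRNA, was called unique if it was found at 1 place over both strands of the 2202 annotated hairpins. The rest of the genome was not searched, and the counts do not separate the arms of a hairpin. The 107 members had 84 distinct hairpin sequences, and 38 of them had an identical copy among the members, in groups of up to 7. In 42 members (39.3%) no window was unique, against 13.4% of the 1894 genes with a sequence. The median member had 27.4% of its windows unique, while the median over those 1894 genes was 100%.

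Reads were counted at no member that lacked a unique window. Of these 42 members, 42 had 0 reads in both libraries. They include all 10 Mir467a copies, which had 3 distinct sequences and 86.7% to 100% identity between pairs, 6 Mir466 genes, 4 Mir669 genes and 22 Gm genes. With fewer than 50% of windows unique but at least 1, detected members numbered 2 of 36, Mir467d (25 of 64 windows unique) and Mir297a-2 (25 of 69). With 50% or more unique they numbered 8 of 29. Elsewhere in the genome, genes with a Mir symbol were detected in 0 of 16, 1 of 20 and 393 of 956 cases in these 3 classes. Those without a Mir symbol were detected in 2 of 196, 0 of 219 and 5 of 380 cases. Some genes without a unique window thus did hold counted reads, Gm23935 with 260 and 634 and Gm24245 with 11 and 15. A read of 22 bases that matches several hairpins cannot be told to come from 1 of them. The level of Mir467a and of the other members without a unique window therefore cannot be read from these counts.

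The members with 50% or more unique windows differed by symbol. Of 16 such members with a Mir symbol 8 were detected, against 41.1% of the Mir genes elsewhere. Of 13 with a Gm symbol 0 were detected, and the corresponding figure elsewhere was 5 of 380 (1.32%). Thus 13 members had 0 reads in both libraries although 50% or more of their windows were unique. Mir466g had 59 of 59 windows unique, Mir669b 68 of 76, Mir669i 80 of 106 and Mir466f-1 37 of 73, and the other 9 had Gm symbols. Mir669i lies next to the detected Mir669h in the intron, and had 0 placed reads where Mir669h had 46 and 33. Reads from the shared windows of Mir669i, or from letters that recur outside the annotated hairpins, may not have been placed, so 0 reads set no limit on the level of these 13 members.

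Within the Mir467 family the unique part and the reads can be set side by side. Mir467c had 48 of 76 windows unique, Mir467e 39 of 66, Mir467d 25 of 64 and Mir467b 11 of 52. Mir467b, whose hairpin was 81.2% identical to that of Mir467d, had 2 reads in replicate 1 and 0 in replicate 2. Mir467d and Mir467e were 92.0% identical, and Mir467c was 83.5% identical to each. Mir467d shared 39 windows with 10 other members each, the most of any of the 3. Over all 107 members the unique share and the level had a Spearman's rho of 0.52, and over the 10 detected members, a subset chosen by its reads, rho was -0.07. The first value takes in the 42 members without a unique window, all at 0 reads. As reads mapping to several places enter no gene, it follows in part from how reads were counted. Both values are across genes that share libraries and are not independent replicates. Mir669e, for example, had 96.9% of its windows unique at 18.8 ± 2.37 CPM.

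**Figure D3:**
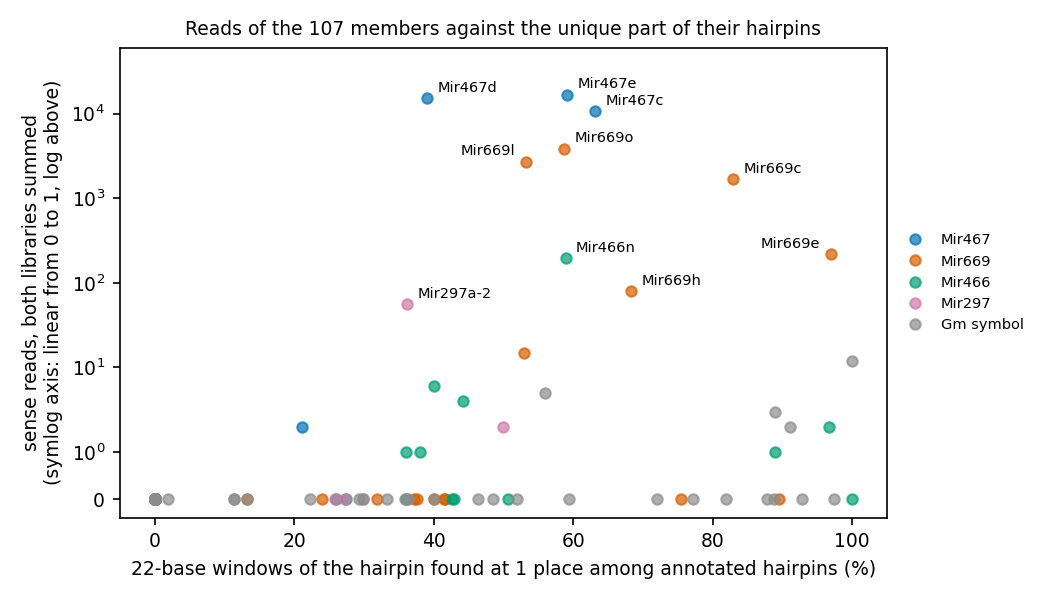
Sense reads summed over both libraries (linear from 0 to 1 and log above) for each of the 107 members, against the percentage of its 22-base windows found at 1 place among annotated hairpins, coloured by family. The 42 members at 0% coincide at 0 reads, and the detected members lie between 36.2% and 96.9%.

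The libraries were compared gene by gene with a two-sided exact binomial test of the reads against the library totals, with Benjamini-Hochberg adjustment over all 411 detected genes. Such a test compares these libraries, not conditions, and a chi-square of 85.8 per degree of freedom over the detected genes showed that they differed beyond counting error overall. Ratios are log2 of replicate 2 over replicate 1. Some markers differed between the libraries in both directions, those of brain among them. Of the brain list, Mir137 (-0.14), Mir135b (-0.16) and Mir153 (-0.13) were called higher in replicate 1. Mir128-1 (0.32), Mir128-2 (0.23) and Mir9-3 (0.30) were called higher in replicate 2, and the other detected brain genes were not called. Mir292, Mir293 and Mir294 of the pluripotent list and Mir206 of the muscle list were not called. All 5 Mir200 family genes were called higher in replicate 1, with ratios from -3.06 to -1.48, and so were 3 of the 4 detected Mir302 genes, with ratios of the 4 from -0.65 to -0.36. Of the blood cell list, Mir451a (0.56) and Mir150 (0.35) were called higher in replicate 2, and Mir144 and Mir223 were not called. Over all 411 detected genes, 29.2% were called higher in replicate 1 and 18.2% in replicate 2. The part of other cell types in the ratios of the cluster members was not tested. Mir467e was higher in replicate 2 at 0.07 (95% counting interval 0.03 to 0.11, exact binomial test, adjusted p = 0.0049), as was Mir467c at 0.08 (0.02 to 0.13, adjusted p = 0.014). Mir669l was higher in replicate 1 at -0.22 (-0.34 to -0.11, exact binomial test, adjusted p = 0.00020), and so was Mir669o at -0.15 (-0.24 to -0.06, adjusted p = 0.0035). With TMM factors, a scaling that sets the bulk of genes level, Mir669o no longer passed, at -0.10 (adjusted p = 0.064).

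The other 6 detected members did not pass, and all 10 lay within 1.5-fold between the libraries. Called higher in replicate 1 were thus 2 of the 10 detected members, against 29.2% of all detected genes, and called higher in replicate 2 were 2, against 18.2%. Mir467d had a ratio of -0.0006 and Mir669c of -0.0067, and both turned positive with TMM factors, to 0.048 and 0.042. Among the lowest members Mir669e had a ratio of -0.26 (-0.66 to 0.14) and Mir669h of -0.27 (-0.96 to 0.41), where a difference of this size was not detectable at their depth. The median ratio of the 10 was -0.05, and that of all 411 detected genes was -0.06.

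**Figure D4:**
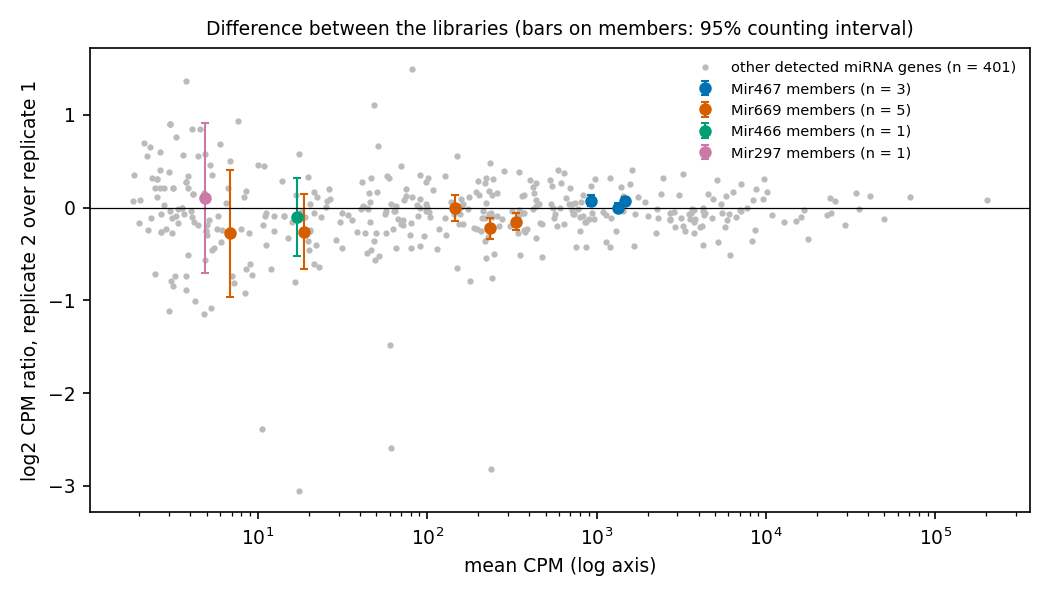
Log2 CPM ratio of replicate 2 over replicate 1 against mean CPM (log axis) for the 411 detected miRNA genes, with other genes in grey and the 10 members coloured by family with 95% counting intervals. The members lie between -0.27 and 0.11, with Mir467e and Mir467c above 0 and Mir669l and Mir669o below it.

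Beside 2 related groups of genes, the detected share of the cluster, 9.35%, lay between theirs. Of these groups 1 has only 10 genes, too few to place the cluster above it. The 10 genes of the Mir297, Mir466, Mir467 and Mir669 families outside Sfmbt2 had a median of 77.0% unique windows, and 0 of 10 were detected. Mir466q had 5 reads in replicate 1 and 0 in replicate 2, and the other 9 had 0 reads. In the imprinted Dlk1-Dio3 domain, a large miRNA cluster on chromosome 12 expressed from the maternal allele, 44 of 53 plus-strand miRNA genes from Meg3 to Mirg were detected (83.0%). They held 11.1% and 11.6% of miRNA reads, far above the 0.448% and 0.452% of the Sfmbt2 members in the same libraries. In that domain the median gene had 100% unique windows and 1 of 53 had none. No test was run between these groups, since genes of 1 library are not replicates and an arrangement of 2 libraries against 2 is too small for a permutation test at 0.05.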

How the data were processed

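For each library the authors deposited a table of unnormalized read counts by miRNA gene, made on mm10 with GENCODE M4, per their notes beside the tables. Aligner and counter: not given in the sources used here. That reads mapping to several places enter no gene was read from the table layout. Sense-strand counts were used. Rows that name no gene (unmapped, several places, no gene, ambiguous) stayed out of library totals. Of 1973 gene identifiers, 1894 matched GENCODE M21 (GRCm38), and 79 did not and held 6 reads in each library.

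CPM were taken over summed sense counts. The 10 detected members were named, with those just below the minimum. Hairpin windows came from GENCODE M21 transcript sequences, mature miRNAs from RefSeq. The exact binomial test, in scipy, was tested on simulated data that held counting error only. How often it calls genes falsely under the wider spread between these libraries was not tested. edgeR served for TMM and RLE factors, as alternatives. With 1 group there was no contrast to test with a count model. Versions were Python 3.11.15, scipy 1.17.1, R 4.3.3 and edgeR 4.0.16. Members, lists and the naming rule were chosen with earlier results of these data known. The Mir302 and Mir200 lists were added after the values were seen. Tables were searched for identical libraries, and the libraries differed beyond sampling noise.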

Additional observations from a re-analysis of the deposited data

Results flagged for a closer look

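Reads that mapped to several places were outside every comparison and numbered 4816290 in replicate 1 and 4391928 in replicate 2. That is 175 and 183 times the reads counted at all 107 members. They are not listed by gene, and how many of them came from the Sfmbt2 hairpins was not tested.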

How the results depend on the processing

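Of 86 alternative values, 77 stayed within the spread of the replicates or within 1.5 times the count, and 9 moved. A change of direction was not scored among them. The number of detected members was 10 in each library alone, 15 with a minimum of 1 read, 11 with 5 and 8 with 50. The share of miRNA reads on the cluster was 0.439% with reads of either strand and 0.201% of all reads in the tables. Members higher in replicate 1 numbered 1 with TMM factors and 1 with RLE size factors, in place of 2, as Mir669o no longer passed. The median level of members with 50% or more unique windows, 0.175 CPM, was 0 with windows of 18 bases. Leaving out a replicate in turn gave 0 without replicate 2 and 0.188 CPM without replicate 1. Detected members in that class numbered 5 with 18 bases, chosen after seeing the data, and 8 with 20 or 24. Mean levels of the 10 detected members moved by at most 2.53% under the scalings and strand choice tried. The scaling factors (TMM 1.017 for replicate 1 and 0.983 for replicate 2) nearly cancel in a mean over both libraries, so they could hardly move it. For the 13 members with reads below the minimum, the parts of depth and of shared windows were not tested. No paired analysis was possible because there was 1 group.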
